A study of Mus musculus with 17 samples.

Results

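RNA of mouse CD8 T cells primed by LSEC was set against RNA of memory CD8 T cells formed after an infection. Sample titles chose 7 of the 17 arrays of the series, 4 titled as LSEC-primed cells and 3 titled as memory CD8+ OT-I T cells. The LSEC-primed cells, which the labels also name CD8+ Tpm and which are called Tpm here, came from a coculture of OT-I T cells with LSEC, the usual abbreviation of liver sinusoidal endothelial cells. The memory cells came from spleen 3 months after infection with Listeria monocytogenes OVA, bacteria that carry ovalbumin. Both groups were OT-I cells, whose transgenic T-cell receptor recognises an ovalbumin peptide, on a C57Bl/6 background at an age given as 2-6 months. Per the labels the cells were isolated lymphocytes, and the design text names isolated or sorted T cells. The priming cell, the source of the RNA (coculture or spleen) and the time since priming changed together between the groups and cannot be told apart. Whether different arrays hold RNA of different mice or cultures is not stated, so the spread between arrays behind each p-value may be technical. In the fits of single genes that spread was pooled over all 17 arrays of the series. Their p-values and standard errors therefore do not measure the spread of these 7 arrays alone. Arrays are called by their sample numbers, Tpm 4, 7, 14 and 15 and memory 3, 5 and 9, and values per array are always given in that order.

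Liver sinusoidal endothelial cells line the small vessels of the liver and can take up antigen from blood and present it on MHC class I to CD8 T cells. CD8 T cells that persist after an infection usually depend on interleukin 7 and interleukin 15, and part of them stay ready to kill and circulate through blood and tissue under receptors for chemokines and sphingosine 1-phosphate. Transcription factors such as Tbx21 (T-bet), Eomes, Zeb2 and Id2 are known to act in the formation of effector and memory CD8 T cells, while Id3, Tox and Egr2 act in T cells that are long-lived or have been stimulated through their receptor.

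Values are normalized log2 intensities, and a difference is Tpm minus memory on that log2 scale with its standard error from limma. A gene counted as higher or lower (called) where it differed at least 2-fold at a Benjamini-Hochberg adjusted p under 0.05. Memory 3 and memory 5 were dim. Their mean signals were 140 and 96.7 units of linear intensity, against 266 units on memory 9 and between 227 and 471 units on the 15 arrays other than memory 3 and memory 5. Probes above background made up 33.7%, 35.1%, 35.7% and 34.0% of the 45281 probes on the Tpm arrays, against 31.1%, 20.1% and 35.4% on memory 3, 5 and 9. Tpm averaged 34.6% ± 0.938 (SD, n = 4) and memory cells 28.9% ± 7.89 (SD, n = 3), with p = 0.229 in a two-sided exact permutation test whose smallest possible p is 0.0571. The number of genes above background averaged 8595 ± 172 in Tpm and 7171 ± 1510 in memory cells (SD, n = 4 and n = 3; exact permutation p = 0.0571). On memory 5 the lowest level above background was 6.26 on the log2 scale, against 4.66 to 4.91 on the 15 arrays named above and 4.96 on memory 3. A gene near or under 6.26 could therefore not be read on memory 5. In RNA of bulk samples, fewer cells of a type and less RNA per cell cannot be told apart.

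**Figure D1:**
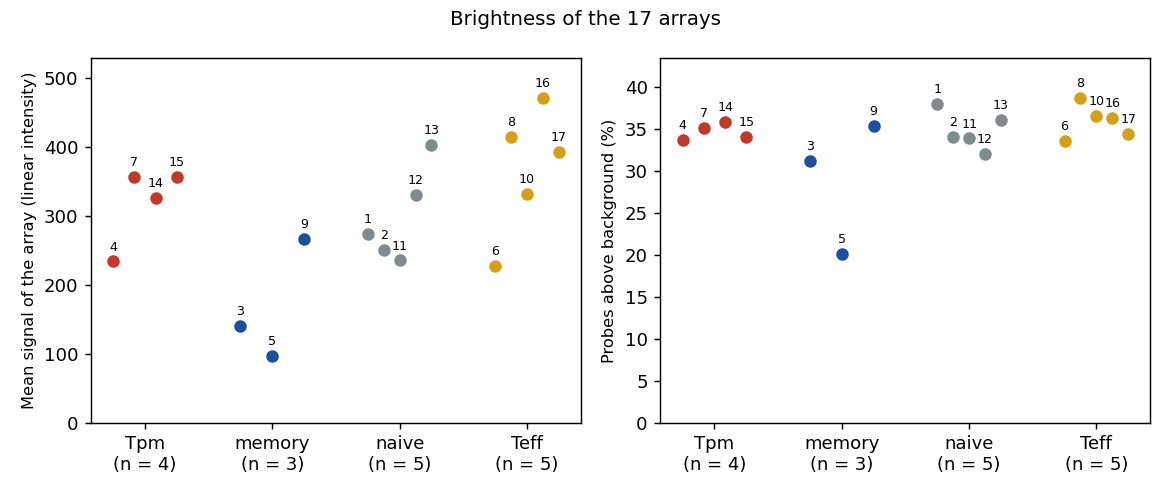
Mean signal (left, linear intensity) and percentage of probes above background (right) of the 17 arrays, 1 point per array with its sample number, by group. Memory 3 and memory 5 have the lowest mean signals, 140 and 96.7, and memory 5 has the lowest share of probes above background, 20.1%.

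Apart from brightness, 2 of the 7 arrays differed from the rest of their groups. Among 80 genes above background on all 4 Tpm arrays and on none of the 10 naive and Teff arrays of the series, 30 were above background on memory 3, 7 on memory 5 and 5 on memory 9. The median level of these genes was 6.12, 6.56, 5.54 and 6.33 in Tpm, against 4.81, 4.36 and 4.33 on memory 3, 5 and 9. Levels in Tpm took part in this choice, which favours genes that are high in Tpm. The values therefore serve to compare the memory arrays with each other only. Memory 3 was also the memory array nearest to Tpm for 496 of the genes called higher, against 140 for memory 5 and 318 for memory 9, and for 257 of the genes called lower, against 82 and 181. Over all 10613 genes tested, the highest memory array was memory 3 for 3287, memory 5 for 3138 and memory 9 for 4188. Of the 954 genes called higher, only 262 were above background on memory 5. Tpm 14 stood apart by macrophage and MHC class II genes. Lyz2, the lysozyme of macrophages, measured 6.97, 7.50, 10.65 and 5.97 in Tpm, against 5.87, 8.25 and 6.05 in memory cells, and the related Lyz1 measured 8.24, 8.20, 13.27 and 8.18 in Tpm, against 7.59, 9.86 and 6.84 in memory cells. The mean level of 14 macrophage markers was 5.45, 5.60, 8.54 and 5.45 in Tpm, against 5.21, 5.84 and 4.81 in memory cells, and all 14 were above background on some Tpm array. Tpm 14 also lacked Xist (4.20, against 11.21 to 12.03 on the other Tpm arrays) and carried Eif2s3y, a Y-linked gene (4.17, 4.32, 10.61 and 4.17 in Tpm, against 4.91, 4.32 and 4.36 in memory cells), unlike the other 6 arrays.

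Markers of other cells also differed between the groups. Of 22 endothelial markers measured, 16 were higher in Tpm and 2 were lower, with a median difference of 2.23. Over all genes tested 8.99% were higher and 4.9% lower, with a median of 0.13. Their mean level was 7.26, 7.56, 7.09 and 7.78 in Tpm, against 6.26, 5.45 and 5.11 on memory 3, 5 and 9. Angpt2, a ligand of the endothelial receptor Tie2, measured 10.05, 10.34, 8.79 and 10.15 in Tpm, against 7.05, 4.42 and 4.44 in memory cells, a difference of 4.53 ± 0.47 (adjusted p = 2.46e-06). Among the memory arrays it was above background on memory 3 alone, as were Egfl7, Robo4 and Plvap. Cdh5, the cadherin of endothelial junctions, had a further probe with a difference of 0.71. On its brightest probe Cdh5 was not above background in memory cells and exceeded them in Tpm by at least 2.33-fold (adjusted p = 1.17e-06). For such a bound, the brighter group's mean was divided by a floor, which on each array of the dimmer group was the lowest signal above background or, where higher, the signal of the gene itself. Lyve1, a hyaluronan receptor of sinusoidal and lymphatic endothelium, was at least 3.2-fold higher (adjusted p = 4.63e-06). The exceptions were Fcgr2b, the inhibitory Fc receptor (-2.97), and Nrp1, a semaphorin receptor (-2.10), both lower in Tpm and both also known in lymphocytes. With memory 9 as the only memory array, 15 endothelial markers were higher and 2 lower, and without Tpm 14 the counts were 16 and 2. On the scale of genes above background on all arrays, described below, 6 were higher and 3 lower.

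Of 8 stromal and stellate cell markers, 5 were higher in Tpm and 0 lower (median 2.20). Bgn, biglycan of the extracellular matrix, measured 8.98, 9.18, 8.55 and 9.59 in Tpm, against 7.17, 4.26 and 4.41 in memory cells, and was above background on memory 3 alone among the memory arrays. Dcn, the related decorin, showed the same order (8.70, 8.73, 7.51 and 8.73 in Tpm, against 6.38, 4.28 and 4.33 in memory cells). Of 7 erythroid markers, 3 were lower in Tpm, all of them haemoglobins. Hbb-bs measured 4.85, 5.00, 4.29 and 4.49 in Tpm, against 12.15, 12.07 and 11.15 in memory cells (-7.13 ± 0.41, adjusted p = 1.48e-09) and was above background on 2 of 4 Tpm arrays, while Hbb-bt was at least 105-fold and Hba-a1 at least 67.9-fold lower in Tpm. On memory 9 alone the differences were -6.77 for Hbb-bt and 4.98 for Bgn, and both were called. None of 3 hepatocyte markers, 14 macrophage markers, 7 MHC class II and B cell markers or 6 neutrophil markers was called with all arrays, while on memory 9 alone 2 neutrophil markers were lower and 1 macrophage marker was higher. Of 6 dendritic cell markers 2 were higher (Ccr7 and Cd83), and of 6 CD4 and regulatory T-cell markers 2 were higher (Ctla4 and Ikzf2) and 1 was lower (Il2ra), all genes that CD8 T cells can carry. The part of these other cells in the differences of T-cell genes was not tested.

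Of 10613 genes tested, 954 were higher in Tpm (8.99%) and 520 were lower (4.9%) with all 3 memory arrays. Without memory 3 the counts were 1186 higher (11.2%) and 654 lower (6.16%), and without memory 5 they were 824 higher (7.76%) and 497 lower (4.68%). On memory 9 alone 770 genes were higher (7.26%) and 514 lower (4.84%). In that fit the lone memory array was assumed to vary like the other groups. With only the Tpm and memory arrays in the fit, so that no other group entered the spread, 550 genes were higher and 347 lower. Memory 5 read few of the higher genes and most of the lower ones. Of the genes called, 262 of the 954 higher genes were above background on memory 5, against 707 on memory 3 and 665 on memory 9, while 493 of the 520 lower genes were above background on memory 5. The filter took part in these numbers, since a probe had to be above background on at least 3 arrays. A gene read in memory cells alone was thus tested only if memory 5 read it too. Without the filter 894 of 19057 genes were higher and 504 lower. The higher call was kept without memory 3 by 894 genes, without memory 5 by 707 and on memory 9 alone by 604, and 551 kept it in all 3 fits. For the lower genes these numbers were 472, 407 and 335, and 306 kept the call in all 3. The sign was the other one on memory 9 alone for 7 of the higher and 3 of the lower genes. Groups did not overlap for 806 of the higher and 452 of the lower genes, and for 24.8% of all genes tested.

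The way the arrays were brought to one scale moved these counts more than leaving out any single array did. The median difference over all genes was 0.13 after quantile normalization. It was 1.04 when each array was divided by its median, where 4492 genes were higher and 56 lower, and -0.70 when arrays were scaled to the 4915 genes above background on all 17 arrays, where 308 were higher and 3803 lower. Directions below are relative to the quantile-normalized scale. A list median given on another scale includes the shift of all genes on that scale. Counts of list members stand against 8.99% higher and 4.9% lower over all genes, so a few called members in a short list can be near those shares. The brightest probe stood for each gene, and probes of a gene could disagree: of 69 named and called genes with a further probe, 42 had one that was under 2-fold in the same direction or had the other sign, and 12 had one of the other sign. Further probes are given for some genes only, so a gene printed without one may still have a probe that disagrees.

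**Figure D2:**
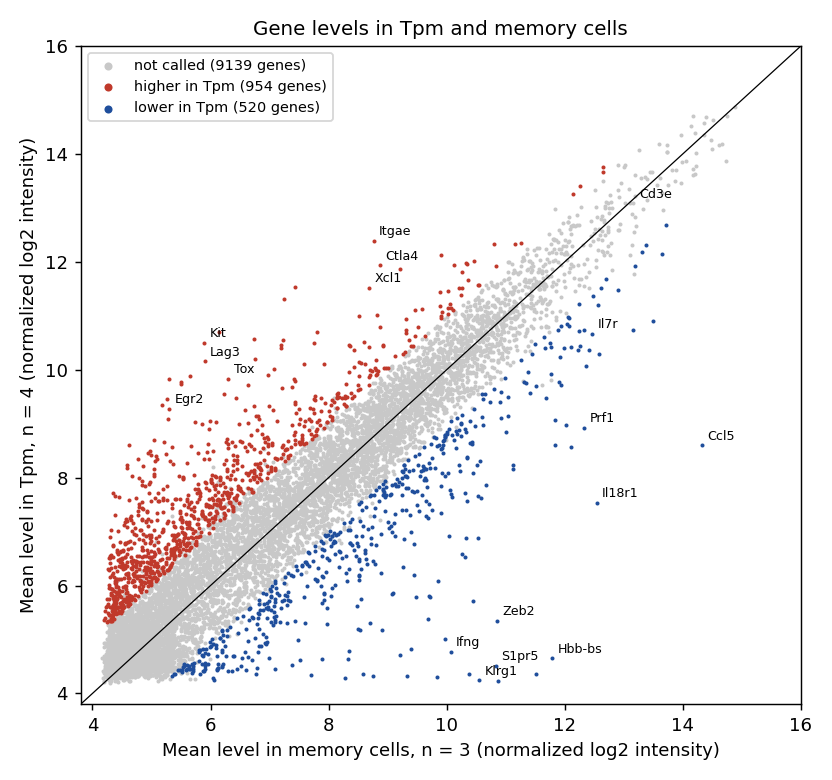
Mean level of each of 10613 genes in Tpm (vertical axis, n = 4) against memory cells (horizontal axis, n = 3), both as normalized log2 intensity, with the line of equal level. Red points are the 954 genes called higher in Tpm and blue points the 520 called lower; Ccl5, Zeb2, S1pr5 and Klrg1 lie far below the line, and Kit and Lag3 far above it.

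Receptors of natural killer type were lower in Tpm or not called. Of 15 such genes measured, 9 were lower and 0 higher, with a median of -1.71, and the median stayed below 0 on every scale tried. Klrg1, an inhibitory lectin-like receptor of cells that have been through an effector phase, measured 4.30, 4.17, 4.19 and 4.34 in Tpm, against 9.85, 11.18 and 10.62 in memory cells. All Tpm values lay below background, so Klrg1 was at least 54.3-fold lower in Tpm (adjusted p = 1.75e-12). Klrc1, which encodes NKG2A, measured 4.34, 4.46, 4.29 and 4.38 in Tpm, against 7.98, 8.43 and 9.34 in memory cells, at least 13.9-fold lower (adjusted p = 5.47e-08). Klra3, a Ly49 receptor for MHC class I, differed by -4.29 ± 0.38 and Klre1 by -3.69 ± 0.43 (adjusted p = 3.96e-07 and 8.92e-06). Klrb1c, which encodes NK1.1, measured 5.91, 5.89, 4.83 and 5.81 in Tpm, against 8.07, 8.98 and 8.40 in memory cells. In contrast Klrd1, the CD94 partner of NKG2 receptors, was high in both groups (13.24, 13.67, 12.77 and 13.18 in Tpm, against 12.85, 13.26 and 13.44 in memory cells) with a difference of 0.03 ± 0.24 (adjusted p = 0.941). Each of the 9 calls was kept on memory 9 alone, where Klrg1 differed by -6.71. The list of NK cell markers also had 3 of 7 members lower (Klrb1c, Klra4 and Eomes; median -0.60, which was 0.17 when arrays were scaled to their medians), and these are genes that memory CD8 T cells can carry too.

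Receptors that guide T cells through blood and tissue were mostly lower where they were called. Of 16 chemokine receptor and trafficking genes, 8 were lower in Tpm and 2 higher (median -1.28, below 0 on every scale tried). S1pr5, a sphingosine 1-phosphate receptor, measured 4.67, 4.49, 4.53 and 4.36 in Tpm, against 10.21, 11.31 and 10.98 in memory cells, at least 65.8-fold lower (adjusted p = 1.75e-12); a further probe of it gave -4.27. Cx3cr1, the fractalkine receptor, measured 4.41, 4.36, 4.26 and 4.41 in Tpm, against 10.24, 10.75 and 10.14 in memory cells, at least 48.1-fold lower (adjusted p = 9.91e-13). No Tpm array reached background for either gene, and all 3 memory arrays exceeded 10 on the log2 scale. Cxcr6, a receptor of cells that lodge in liver and other tissue, was lower, with a difference of -2.57 ± 0.58 and Cxcr4 by -1.80 ± 0.31. Both members that were higher in Tpm serve entry into lymph nodes and follicles. Ccr7 measured 8.53, 9.19, 8.55 and 8.21 in Tpm, against 7.19, 4.76 and 5.92 in memory cells (2.66 ± 0.44, adjusted p = 0.000241), and Cxcr5 differed by 2.39 ± 0.29. Further probes of Cxcr5 gave 0.73 and 0.28. Ccr7 was below background on memory 5, and its difference was 2.14 without that array and 2.86 on memory 9 alone. Cxcr3, a receptor for Cxcl9 and Cxcl10, did not pass with all arrays (-0.80 ± 0.29, adjusted p = 0.0512) and passed without memory 5 (-1.17, adjusted p = 0.00827). S1pr4 was called lower with all arrays (-1.98) but not on memory 9 alone (-1.19, adjusted p = 0.431).

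Several genes of killing, and interferon gamma, were lower in Tpm. Of 16 cytotoxic granule genes, 5 were lower and 0 higher, with a median of -0.19. It was 1.14 when arrays were scaled to their medians, where the median over all genes was 1.04. Gzmm, a granzyme of innate-like killer cells, measured 4.95, 5.02, 5.19 and 4.85 in Tpm, against 10.28, 9.57 and 10.06 in memory cells (-4.97 ± 0.18, adjusted p = 1.75e-12). Prf1, the pore-forming perforin, measured 9.75, 9.48, 8.00 and 8.46 in Tpm, against 11.52, 12.25 and 13.23 in memory cells (-3.41 ± 0.45, adjusted p = 2.91e-05), and a further probe gave -3.63. Fasl, the ligand of the death receptor Fas, differed by -3.22 ± 0.32, and Gzmk, which was above background on 2 of 4 Tpm arrays, by -1.87 ± 0.32. For Gzmm and Prf1 the groups did not overlap, and all 7 arrays were above background. Ifng measured 4.94, 5.56, 4.20 and 4.40 in Tpm, against 9.87, 10.73 and 9.60 in memory cells, and was above background on 2 of 4 Tpm arrays (-5.29 ± 0.34, adjusted p = 8.05e-09; -5.11 on memory 9 alone). Tnf measured 4.88, 4.61, 6.43 and 5.14 in Tpm, against 6.64, 6.63 and 5.48 in memory cells, and was not called (-0.99 ± 0.42, adjusted p = 0.0951). Memory 9 lay inside the range of Tpm, and without Tpm 14 Tnf was called lower (-1.36, adjusted p = 0.012). A further probe of Tnf gave -1.93.

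Chemokine ligands were called in both directions. Ccl5, a chemokine stored by memory CD8 T cells, was among the brightest genes of memory cells and measured 7.78, 8.67, 9.48 and 8.47 in Tpm, against 14.18, 14.53 and 14.27 in memory cells (-5.73 ± 0.30, adjusted p = 3.75e-10). Ccl3 differed by -2.22 ± 0.32 and Ccl4 by -2.13 ± 0.35, both inflammatory chemokines of activated T cells. Xcl1, which attracts cross-presenting dendritic cells, went the other way with 11.61, 11.38, 11.71 and 11.39 in Tpm, against 9.90, 8.62 and 7.55 in memory cells (2.83 ± 0.43, adjusted p = 0.000115). Xcl1 was above background on all 7 arrays, and its difference was 4.05 on memory 9 alone. Cxcl9, a chemokine induced by interferon gamma, measured 9.44, 10.14, 9.64 and 10.33 in Tpm, against 7.94, 4.68 and 4.33 in memory cells, above background on memory 3 alone among the memory arrays. Its mean level was 4.87 in naive and 4.57 in Teff cells, near background, and which cells carried its RNA was not tested. In the list of effector cytokines and chemokines 4 of 17 genes were higher and 5 lower (median -0.14, which was 0.79 when arrays were scaled to their medians). Ccl9, a macrophage and myeloid chemokine, was lower with 5.35, 5.01, 9.53 and 4.88 in Tpm, against 8.23, 9.42 and 7.91 in memory cells, and Tpm 14 lay above all 3 memory arrays. Its difference was -2.33 with Tpm 14 and -3.42 without it (adjusted p = 2.45e-07), and -1.86 on memory 9 alone (adjusted p = 0.354).

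Both chains of the interleukin 18 receptor were lower in Tpm, and so was the interleukin 7 receptor except when arrays were scaled to their medians. Il18r1 measured 7.87, 8.45, 6.31 and 7.50 in Tpm, against 12.10, 12.26 and 13.26 in memory cells (-5.01 ± 0.45, adjusted p = 4.24e-07). Il18rap was above background on no Tpm array (4.37, 4.35, 4.24 and 4.35 in Tpm, against 9.51, 9.66 and 8.79 in memory cells) and at least 23.1-fold lower (adjusted p = 4.04e-12), although a further probe gave -0.52. Il7r measured 10.38, 11.02, 10.48 and 10.80 in Tpm, against 12.38, 11.73 and 13.27 in memory cells. It was lower, with a difference of -1.79 ± 0.30 (adjusted p = 0.000267), and was called lower in 18 of 19 alternatives. The difference was 0.16 when arrays were scaled to their medians, where the median over all genes was 1.04. On memory 9 alone it was -2.56, and further probes of Il7r gave -1.72, -2.09, -3.10 and -1.26. Il2ra, the high-affinity chain of the interleukin 2 receptor, was lower, with a difference of -1.58 ± 0.21, but a further probe gave -0.18. Il2rb (-0.68 ± 0.31, adjusted p = 0.118) and Il10ra (-0.59 ± 0.22, adjusted p = 0.0626) were not called. Il6st, the signalling chain shared by interleukin 6 family receptors, was higher by 2.09 ± 0.36, and Il6ra was near background. Of 21 cytokine receptor genes 1 was higher and 6 lower (median -0.59, which was 0.39 when arrays were scaled to their medians). The counts were 1 and 5 on memory 9 alone.

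Among 18 memory CD8 T-cell genes 8 were lower in Tpm and 3 higher (median -0.81). When arrays were scaled to their medians the list median was 0.57, or -0.47 with the shift of 1.04 over all genes taken off. Beside the genes above, Ly6c1, a surface protein of memory and effector cells, measured 8.49, 8.21, 8.04 and 9.57 in Tpm, against 12.30, 11.82 and 12.18 in memory cells (-3.53 ± 0.29, adjusted p = 1.63e-07). Bcl2, which protects cells from apoptosis, was lower, with a difference of -1.26 ± 0.33, and Cd44, an adhesion molecule of antigen-experienced cells, by -1.24 ± 0.29, but both changed sign when arrays were scaled to their medians (0.60 and 0.53). Cd44 was not called on memory 9 alone (-0.79, adjusted p = 0.266), and 3 of its 4 other probes lay between -0.10 and -0.08. The higher members were Ccr7, Id3 and Myb. Tcf7, Gzma, Gzmb, S1pr1, Bach2, Nfil3, Nr4a1, Mki67, Ly6c2 and Cd8a had no probe among those tested and were not analysed here.

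Transcription factors of T-cell fate were called in both directions. Of 20 measured, 7 were lower in Tpm and 5 higher (median -0.15, which was 1.14 when arrays were scaled to their medians). Zeb2, a repressor that acts with Tbx21 in terminal effector cells, measured 5.15, 5.74, 5.28 and 5.23 in Tpm, against 10.51, 11.42 and 10.62 in memory cells (-5.50 ± 0.28, adjusted p = 2.25e-10). Tbx21 measured 6.46, 7.26, 7.07 and 6.90 in Tpm, against 10.11, 10.01 and 10.00 in memory cells (-3.12 ± 0.25, adjusted p = 1.07e-07). The 3 memory arrays were nearly equal for Tbx21, and its difference on memory 9 alone was -3.20. Id2 differed by -2.80 ± 0.56 and Rora, a nuclear receptor of innate and effector lymphocytes, by -3.70 ± 0.30. Eomes measured 6.43, 6.29, 5.22 and 5.86 in Tpm, against 8.24, 8.43 and 7.50 in memory cells (-2.11 ± 0.38, adjusted p = 0.000613), and missed the threshold on memory 9 alone (-1.67, adjusted p = 0.078). On the higher side, Tox measured 9.98, 9.63, 9.73 and 10.00 in Tpm, against 8.08, 4.36 and 6.46 in memory cells (3.54 ± 0.52, adjusted p = 7.9e-05). Id3, which opposes the same E proteins as Id2, measured 7.52, 7.99, 7.98 and 7.67 in Tpm, against 5.91, 4.33 and 5.36 in memory cells (2.59 ± 0.34, adjusted p = 2.95e-05). Both Tox and Id3 were under background on memory 5, and without it the differences were 2.64 and 2.26. Irf8 was higher by 2.10 ± 0.43 and Ikzf2, the factor Helios, by 2.26 ± 0.59, but Ikzf2 was above background on memory 3 alone among the memory arrays and was not called without memory 5 (1.96, adjusted p = 0.0512), while it was called on memory 9 alone (3.33).

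Genes of the naive and quiescent state were called in both directions, with 3 of 16 higher in Tpm and 3 lower (median -0.27, which was 0.57 when arrays were scaled to their medians). The shares over all genes were 8.99% higher and 4.9% lower. Klf3, a repressor of the Krüppel-like family, measured 4.45, 4.54, 5.03 and 5.12 in Tpm, against 8.36, 8.25 and 8.43 in memory cells (-3.56 ± 0.21, adjusted p = 2.37e-09), and was above background on 2 of 4 Tpm arrays. Klf2, which maintains S1pr1 transcription, measured 10.42, 10.47, 9.03 and 11.27 in Tpm, against 12.70, 12.61 and 12.40 in memory cells (-2.27 ± 0.45, adjusted p = 0.00129), and its adjusted p was 0.0677 on memory 9 alone. Actn1, an actin crosslinker, measured 11.21, 12.01, 11.36 and 11.55 in Tpm, against 9.57, 4.47 and 8.24 in memory cells (4.11 ± 0.71), where memory 5 was near background and the difference without it was 2.64. Dapl1 was higher by 2.45 ± 0.50 and Igfbp4 by 1.90 ± 0.27. The list had 3 genes higher and 1 lower on memory 9 alone.

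S100 proteins, annexins and galectins, which are plentiful in effector and memory T cells, were lower in Tpm or not called, with 8 of 17 lower and 0 higher (median -1.49). When arrays were scaled to their medians the list median was 0.35, or -0.69 with the shift of 1.04 over all genes taken off. S100a4 measured 4.80, 4.83, 4.85 and 4.41 in Tpm, against 8.33, 9.42 and 9.88 in memory cells (-4.49 ± 0.36, adjusted p = 1.27e-07), and was above background on 2 of 4 Tpm arrays. S100a6 measured 6.07, 7.62, 6.57 and 7.23 in Tpm, against 10.14, 10.84 and 10.61 in memory cells (-3.66 ± 0.41). Ahnak, a large scaffold that binds S100a10 and annexin 2, was lower, with a difference of -2.59 ± 0.30, though its 4 other probes ranged from -3.32 to 0.17. The number lower was 6 on memory 9 alone.

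**Figure D3:**
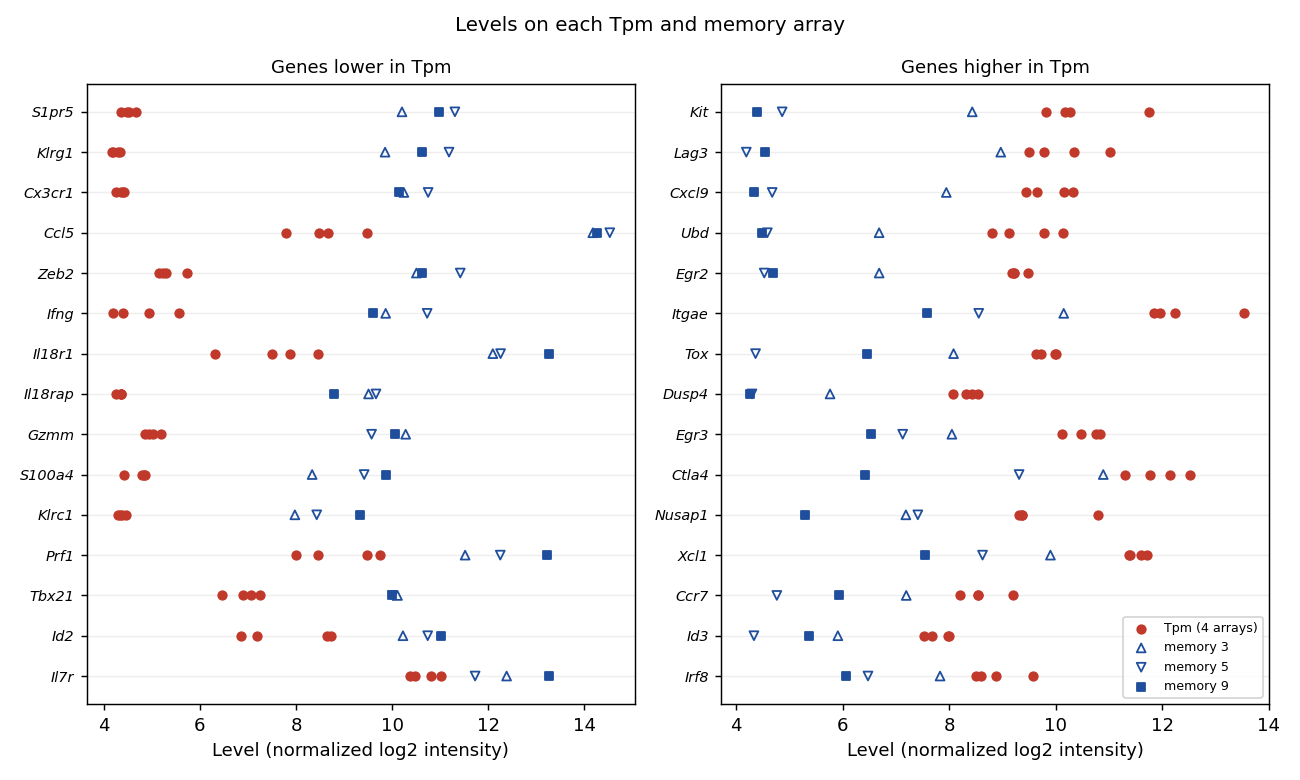
Level (normalized log2 intensity) of 15 genes lower in Tpm (left) and 15 higher in Tpm (right) on each of the 4 Tpm arrays (filled circles) and on memory 3, 5 and 9 (triangles and squares). The memory arrays lie close together for most lower genes, while memory 3 lies nearest to Tpm for most of the higher genes, as for Lag3 (8.97 on memory 3, 4.19 on memory 5 and 4.54 on memory 9).

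Co-inhibitory receptors that were called were mostly higher in Tpm. Of 16 genes of co-inhibition and exhaustion, 5 were higher and 1 lower (median 0.43, which was -0.88 when arrays were scaled to the genes above background on all arrays). Lag3, an inhibitory receptor for MHC class II, measured 9.79, 9.49, 10.34 and 11.01 in Tpm, against 8.97, 4.19 and 4.54 in memory cells (4.26 ± 0.76, adjusted p = 0.000527). Among the memory arrays it was above background on memory 3 alone, which lay below the lowest Tpm array, and the difference was 5.89 without memory 3, 3.51 without memory 5 and 5.93 on memory 9 alone. Ctla4, which competes with Cd28, measured 12.14, 12.52, 11.29 and 11.77 in Tpm, against 10.89, 9.31 and 6.42 in memory cells (3.06 ± 0.66, adjusted p = 0.00233). All 3 memory arrays read it but lay far apart, and the difference on memory 9 alone was 5.66. Cd200, a ligand of an inhibitory myeloid receptor, differed by 3.24 ± 0.38, with 1.92 and 0.25 on further probes. Cd274, which encodes PD-L1, was not called (9.51, 9.68, 10.63 and 9.36 in Tpm, against 9.40, 9.90 and 9.32 in memory cells; 0.25 ± 0.26, adjusted p = 0.52). Pdcd1, which encodes PD-1, was above background on 1 Tpm array and no memory array, and Havcr2 (TIM-3) on 1 array of each group. The lower member was Nt5e, the ectonucleotidase CD73 (-1.07 ± 0.24), which was 0.79 when arrays were scaled to their medians. Without Tpm 14 the list had 5 higher and 2 lower.

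Genes induced by T-cell receptor stimulation were called in both directions. Of 27 immediate early and activation-induced genes 7 were higher in Tpm and 3 lower (median 0.07, which was -0.84 when arrays were scaled to the genes above background on all arrays). Egr2, a zinc-finger factor of stimulated and tolerant T cells, measured 9.18, 9.22, 9.48 and 9.22 in Tpm, against 6.68, 4.53 and 4.69 in memory cells (3.97 ± 0.49, adjusted p = 1.48e-05), above background on memory 3 alone among the memory arrays. Egr3 measured 10.83, 10.76, 10.11 and 10.47 in Tpm, against 8.05, 7.13 and 6.53 in memory cells (3.31 ± 0.39, adjusted p = 9.06e-06), and Egr1 differed by 2.65 ± 0.39. A further probe of Egr3 gave 0.24. All 3 memory arrays read Egr1 and Egr3, and the differences on memory 9 alone were 3.91 and 4.16. Dusp4, a phosphatase of MAP kinases, differed by 3.56 ± 0.28 and the related Dusp6 by 1.92 ± 0.36. Both lower genes named here depended on the dim arrays. Junb, an AP-1 subunit, measured 7.60, 7.02, 9.04 and 8.82 in Tpm, against 11.10, 10.60 and 8.98 in memory cells (-2.10 ± 0.55, adjusted p = 0.00926), where memory 9 lay within the range of Tpm and the difference on memory 9 alone was -0.89 (adjusted p = 0.505; -1.68 and adjusted p = 0.0513 without memory 3), and a further probe gave 0.09. Ppp1r15a, which reverses a translational stress signal, measured 6.39, 5.87, 6.96 and 6.97 in Tpm, against 9.69, 9.15 and 6.03 in memory cells, lower with all arrays at -1.75 (adjusted p = 0.0434) and 0.55 on memory 9 alone. The mean level of the list was 7.63, 7.73, 7.59 and 7.89 in Tpm, against 7.81, 7.76 and 6.79 on memory 3, 5 and 9. Cd69 (0.65 ± 0.26), Fosl2 (-0.70 ± 0.24) and Myc (0.16 ± 0.29) were not called with all arrays, and Fosl2 was called lower on memory 9 alone (-1.24, adjusted p = 0.0108).

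Among 13 genes of residency and the response to TGF-beta, 3 were higher in Tpm and 2 lower, beside 8.99% and 4.9% of all genes (median 0.19, which was -0.94 when arrays were scaled to the genes above background on all arrays). Itgae, the integrin chain CD103 that binds E-cadherin, measured 11.84, 12.24, 13.53 and 11.95 in Tpm, against 10.15, 8.55 and 7.58 in memory cells (3.63 ± 0.64, adjusted p = 0.000453), and 5 further probes gave differences of 1.11 to 3.75. Its difference was 4.33 without memory 3, 3.55 without memory 5 and 4.88 on memory 9 alone. Itga1, the CD49a chain, was not called with all arrays (-0.91 ± 0.27) and was lower on memory 9 alone (-1.84, adjusted p = 0.000115). Rgs1, a regulator of G-protein signals, was lower, with a difference of -1.22 ± 0.27 with all arrays but not on memory 9 alone (-0.54), and was 0.69 when arrays were scaled to their medians.

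Interferon response genes were counted in a list for interferon gamma and a list for type I interferon, beside 8.99% higher and 4.9% lower over all genes. Of 19 interferon-gamma response genes 7 were higher in Tpm and 1 lower (median 0.41, above 0 on every scale tried). Ubd, a ubiquitin-like protein, measured 9.12, 10.13, 8.81 and 9.78 in Tpm, against 6.68, 4.59 and 4.49 in memory cells (4.21 ± 0.40, adjusted p = 8.12e-07), above background on memory 3 alone among the memory arrays. Irf8, a transcription factor of the interferon system, measured 8.49, 8.88, 9.57 and 8.60 in Tpm, against 7.83, 6.47 and 6.06 in memory cells (2.10 ± 0.43, adjusted p = 0.00153), and Cxcl10 measured 6.84, 5.95, 6.13 and 7.70 in Tpm, against 5.99, 4.35 and 4.25 in memory cells (1.79 ± 0.38). Ubd and Cxcl10 were above background on no naive or Teff array, while Irf8 was above background on all of them. The endothelial markers Angpt2 and Robo4 were also above background on no naive or Teff array, while Egfl7 was above background on 5 Teff arrays. Which cells carried the RNA of these genes was not tested. Igtp, a GTPase that acts on vacuoles of intracellular pathogens, measured 11.47, 11.79, 12.62 and 12.03 in Tpm, against 10.84, 10.05 and 10.07 in memory cells (1.66 ± 0.29). On memory 9 alone 6 were higher. Gbp7 was lower, with a difference of -1.57 ± 0.21, which was 0.04 when arrays were scaled to their medians. Of 22 type I interferon response genes 1 was higher in Tpm and 5 lower (median -0.18, which was 0.53 when arrays were scaled to their medians), and on memory 9 alone 0 were higher and 2 lower. Ifit3, which binds foreign RNA, measured 7.73, 8.13, 6.88 and 8.32 in Tpm, against 10.19, 10.34 and 9.63 in memory cells (-2.29 ± 0.60, adjusted p = 0.00883), and was not called on memory 9 alone (-1.94, adjusted p = 0.207). Irf7 differed by -2.06 ± 0.35 with all arrays and by -1.66 on memory 9 alone (adjusted p = 0.0528), while Usp18 (-1.78) and Mx1, at least 2.05-fold lower in Tpm and above background on memory 3 and 9, kept their calls. Bst2, the higher member, measured 6.64, 7.57, 7.10 and 6.76 in Tpm, against 4.68, 4.36 and 6.57 in memory cells, and 0.48 on memory 9 alone was no longer a call.

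Promoter windows of called interferon genes are shown because they hold the letters that interferon-activated factors are known to bind. Windows of RefSeq (assembly GRCm38.p6) run from 250 bases before to 50 bases after the gene start on the strand of the gene and were searched on both strands for GAAA and GAAA with any 2 bases between them, the core of the interferon-stimulated response element, TTCNNNGAA, the core of the gamma-activated site, and TGANTCA, an AP-1 site. Capitals mark the matches, which for the minus orientation read as the reverse complement. Shown are members with an interferon motif and the largest differences, up to 3 each, among the higher interferon-gamma genes and the lower type I genes, chosen after the matches were seen.
Irf8 (chr8:120736108-120736407, plus strand): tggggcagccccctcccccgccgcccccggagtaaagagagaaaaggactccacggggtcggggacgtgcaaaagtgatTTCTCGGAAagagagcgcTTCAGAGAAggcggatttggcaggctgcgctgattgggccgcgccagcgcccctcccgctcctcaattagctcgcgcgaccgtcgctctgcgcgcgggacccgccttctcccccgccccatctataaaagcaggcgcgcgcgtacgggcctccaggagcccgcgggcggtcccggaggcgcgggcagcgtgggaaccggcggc
Cxcl10 (chr5:92348840-92349139, minus strand): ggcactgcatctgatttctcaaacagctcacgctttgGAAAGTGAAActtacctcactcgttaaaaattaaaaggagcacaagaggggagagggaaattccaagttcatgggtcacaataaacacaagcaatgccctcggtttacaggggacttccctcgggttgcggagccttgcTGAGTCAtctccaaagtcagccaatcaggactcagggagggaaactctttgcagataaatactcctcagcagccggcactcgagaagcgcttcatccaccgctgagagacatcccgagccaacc
Igtp (chr11:58199306-58199605, plus strand): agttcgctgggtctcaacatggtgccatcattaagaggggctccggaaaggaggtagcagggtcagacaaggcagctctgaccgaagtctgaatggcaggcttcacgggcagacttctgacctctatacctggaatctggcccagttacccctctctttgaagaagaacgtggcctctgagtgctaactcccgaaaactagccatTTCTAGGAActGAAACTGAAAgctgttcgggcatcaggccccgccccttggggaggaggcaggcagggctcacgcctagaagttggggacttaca
Ifit3 (chr19:34583279-34583578, plus strand): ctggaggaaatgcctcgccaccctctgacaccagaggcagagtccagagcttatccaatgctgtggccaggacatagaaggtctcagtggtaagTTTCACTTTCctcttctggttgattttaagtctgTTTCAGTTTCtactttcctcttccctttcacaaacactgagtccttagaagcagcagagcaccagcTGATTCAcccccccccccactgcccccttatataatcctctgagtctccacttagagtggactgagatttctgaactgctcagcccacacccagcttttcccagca
Ddx58 (chr4:40239776-40240075, minus strand): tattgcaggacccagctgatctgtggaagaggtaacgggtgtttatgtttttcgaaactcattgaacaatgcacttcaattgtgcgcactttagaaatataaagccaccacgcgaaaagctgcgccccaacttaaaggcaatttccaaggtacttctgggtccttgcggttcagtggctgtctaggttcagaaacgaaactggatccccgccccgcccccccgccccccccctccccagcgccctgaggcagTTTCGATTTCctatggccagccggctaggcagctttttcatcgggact

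Of the 7 higher interferon-gamma genes, 4 held the response element core (Gbp2, Igtp, Irgm2 and Cxcl10) and 3 the gamma-activated site core (Igtp, Irgm2 and Irf8), against 3.99% and 9.55% of all 27025 genes with a window. In the Irf8 window both matches are gamma-activated site cores, and in the Cxcl10 window the response element core stands with an AP-1 site, which 8.97% of genes held. Gbp7, the lower interferon-gamma gene, and Bst2, the higher type I gene, whose windows are not shown, each held both interferon cores, so the cores occurred in genes called in either direction. Cxcl9 and Ubd, with the largest differences of the list, had neither interferon core in their windows. Of the lower type I genes 3 had a window, and Ifit3 and Ddx58 held the response element core. Ddx58, a sensor of viral RNA, differed by -1.30 ± 0.39 (adjusted p = 0.0212) with all arrays and by -1.16 on memory 9 alone, where it was not called. A match is a description of these letters and no sign of binding.

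MHC class I presentation genes had 3 of 17 lower in Tpm and 0 higher (median -0.20, which was 1.36 when arrays were scaled to their medians). H2-Q7, a class Ib molecule, was lower, with a difference of -2.30 ± 0.40 (adjusted p = 0.000418), while a further probe gave -0.79. H2-K1 (-1.28 ± 0.39) and H2-T23 (-1.35 ± 0.44) were called with all arrays, were called neither without memory 5 nor on memory 9 alone and changed sign when arrays were scaled to their medians, both to 0.53. Without Tpm 14, H2-K1 was not called (-1.14, adjusted p = 0.0582).

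Cell division genes were higher in Tpm. Of 15 genes measured, 13 were higher in Tpm and 0 lower, with a median of 2.18 that stayed above 0 on every scale tried. The mean level of the list was 7.30, 7.10, 8.70 and 7.62 in Tpm, against 6.03, 6.04 and 5.23 on memory 3, 5 and 9, and Tpm 14 was the highest of all. Nusap1, a spindle protein, measured 9.37, 9.31, 10.79 and 9.37 in Tpm, against 7.19, 7.41 and 5.30 in memory cells (3.08 ± 0.45, adjusted p = 7.54e-05). Birc5, survivin of the chromosomal passenger complex, differed by 2.88 ± 0.43, Top2a, the topoisomerase of dividing cells, by 2.67 ± 0.58 and Cdca8 by 2.40 ± 0.37. Further probes of Nusap1 gave 0.44 and -0.13, and those of Top2a -0.06 and 1.89. On memory 9 alone 12 of 15 were higher, as without Tpm 14. On the scale of genes above background on all arrays 7 were higher and 2 lower. DNA replication genes had 11 of 26 higher and 1 lower (median 0.90, above 0 on every scale tried). Their counts depended on the scale, with 20 higher and 0 lower on the median scale, 3 higher and 2 lower on the scale of genes above background on all arrays, 5 higher under cyclic loess and 3 higher without background correction. Mcm10, which acts in starting the replicative helicase, measured 7.96, 7.45, 8.75 and 7.89 in Tpm, against 6.00, 5.84 and 4.75 in memory cells (2.48 ± 0.30, adjusted p = 1.32e-05), and Cdc6, a licensing factor, differed by 2.24 ± 0.25. Gins1 was higher by 1.60 ± 0.24 but -0.11 when arrays were scaled to the genes above background on all arrays, and Rpa2 was lower, with a difference of -1.19 ± 0.21 but 0.36 when they were scaled to their medians. Against memory 9 alone 9 replication genes were higher, and without Tpm 14 also 9.

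In 5 metabolic lists 14 genes were higher and 0 lower, while over all genes 8.99% were higher, which is between 1 and 2 genes in a list of 15. Of 15 amino acid response and one-carbon genes 5 were higher and 0 lower (median 0.95, which was -0.20 when arrays were scaled to the genes above background on all arrays). Shmt1, which moves one-carbon units from serine, measured 8.98, 8.60, 7.17 and 8.50 in Tpm, against 5.81, 4.47 and 5.64 in memory cells (3.00 ± 0.38, adjusted p = 1.83e-05). A further probe of Shmt1 gave 0.87. Psat1 of serine synthesis differed by 2.18 ± 0.24 and Asns, asparagine synthetase, by 2.45 ± 0.41, with -0.01 and 1.68 on further probes of Asns. Atf5 was higher by 1.54 ± 0.25, but -0.10 on the scale of genes above background on all arrays. Of 15 glycolysis genes 2 were higher with all arrays and 7 on memory 9 alone, with medians of 0.70 and 1.10. Tpi1, triose phosphate isomerase, measured 11.55, 11.03, 12.12 and 11.35 in Tpm, against 10.43, 10.90 and 9.27 in memory cells (1.31 ± 0.30), lowest on memory 9. Of 15 cholesterol synthesis genes 3 were higher, led by Sqle, squalene epoxidase (1.94 ± 0.28), and their median of 0.58 was -0.55 on the scale of genes above background on all arrays. A further probe of Sqle gave 0.65. Of 15 fatty acid oxidation genes 3 were higher with all arrays and 0 on memory 9 alone, where Slc25a20, the carnitine carrier, differed by 1.00 (adjusted p = 0.0836). Of 15 ribosome biogenesis genes 1 was higher, Nop2, and its call was lost on memory 9 alone. Without Tpm 14 the number was 2.

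Genes of T-cell identity, survival and co-stimulation were also counted. Of 14 CD8 identity and receptor complex genes (median -0.26, which was 1.31 when arrays were scaled to their medians) 1 was called, Cd2, a receptor of adhesion (-1.83 ± 0.30), which was 0.11 when arrays were scaled to their medians. Cd3e measured 13.13, 13.24, 12.83 and 13.12 in Tpm, against 12.82, 13.24 and 13.42 in memory cells (-0.08 ± 0.18, adjusted p = 0.788), and Cd8b1 measured 13.77, 13.95, 13.64 and 13.55 in Tpm, against 14.09, 14.21 and 14.21 in memory cells. On these probes Cd3e, of the receptor complex of T cells, and Cd8b1, a chain of CD8, were high on all 7 arrays. Further probes of Cd8b1 gave 1.08 and -0.79. Cd3e was 1.75 when arrays were scaled to their medians. Of 21 BCL2 family and survival genes 2 were higher and 1 lower, shares near those over all genes (median 0.15, which was -0.72 on the scale of genes above background on all arrays). The higher calls, Bcl2a1b and Fas, were absent on memory 9 alone and without Tpm 14 (1.05 with adjusted p = 0.0529, and 0.94, under 2-fold). Of 14 co-stimulatory receptors 1 was higher and 3 lower, beside 8.99% and 4.9% of all genes (median -0.17, which was 1.11 when arrays were scaled to their medians), and without Tpm 14 2 were higher. Tnfrsf25, death receptor 3, measured 5.83, 6.18, 5.44 and 5.93 in Tpm, against 8.99, 8.62 and 9.62 in memory cells (-3.23 ± 0.24, adjusted p = 4.8e-08), and Slamf7 differed by -2.33 ± 0.26. Slamf6, the higher member, was below background on memory 5 and was called neither without that array (1.25) nor on memory 9 alone (1.67). Among 7 Gimap GTPases, which act in lymphocyte survival (median -0.30, which was 1.11 when arrays were scaled to their medians), Gimap5 was lower, with a difference of -2.07 ± 0.20 while a further probe gave 0.69.

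**Figure D4:**
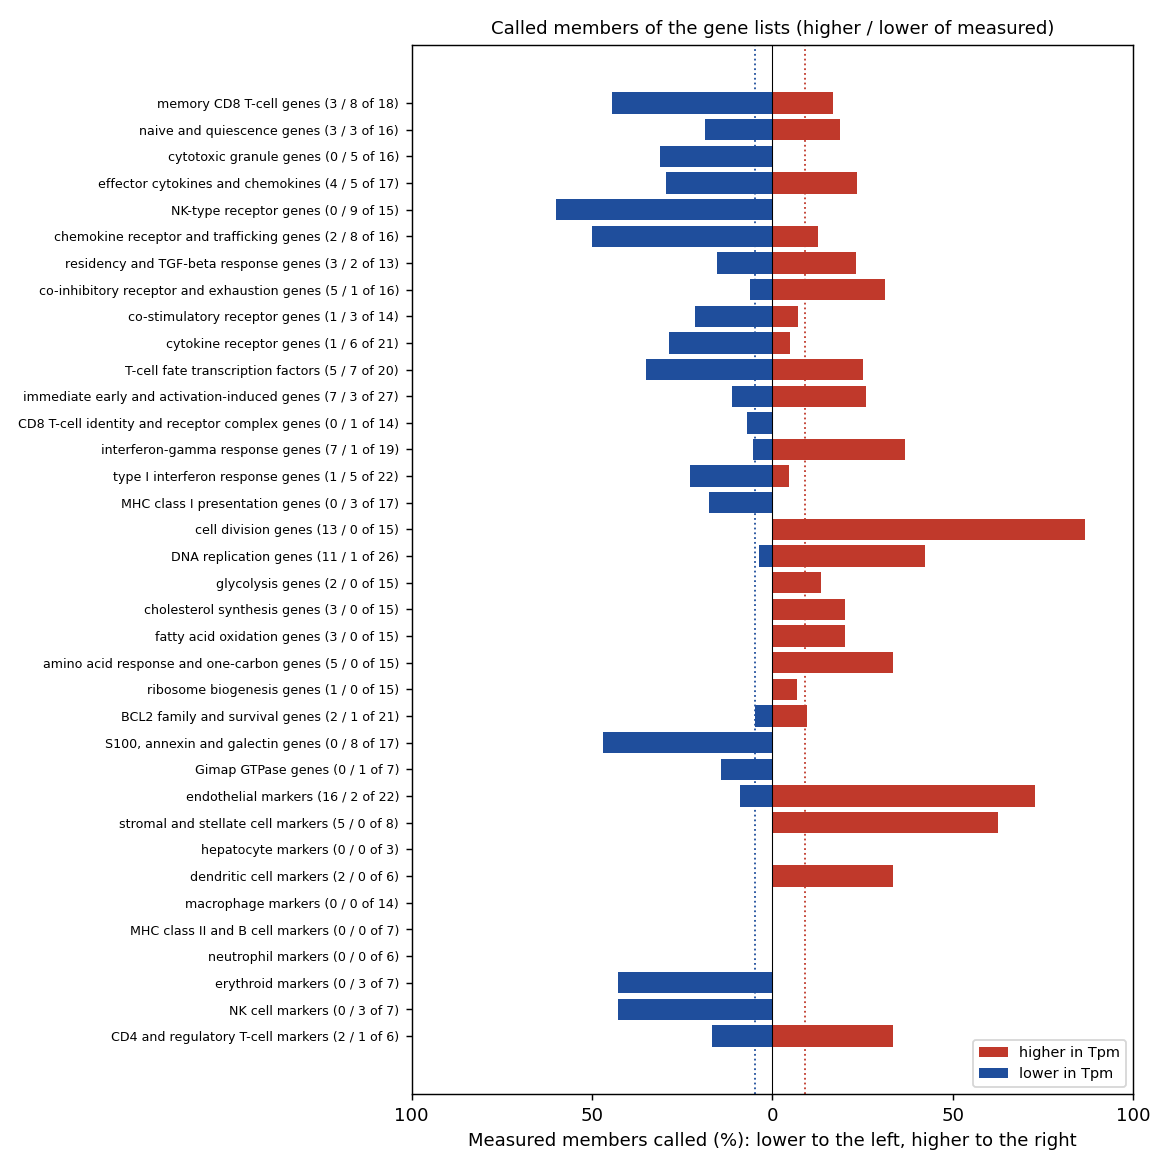
Percentage of measured members called higher in Tpm (red, to the right) and lower in Tpm (blue, to the left) in 26 T-cell gene lists and 10 marker lists, with counts as higher / lower of measured. Dotted lines mark the shares over all genes, 8.99% higher and 4.9% lower; cell division (13 of 15 higher) and NK-type receptor genes (9 of 15 lower) stand farthest out among the T-cell lists.

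The genes with the largest differences outside these lists were led on the higher side by Kit, the receptor of stem cell factor, which measured 9.82, 10.17, 11.74 and 10.26 in Tpm, against 8.43, 4.86 and 4.39 in memory cells (4.60 ± 0.70, adjusted p = 0.000121), while a further probe gave 0.67. Synpo, an actin-binding protein, measured 9.84, 9.98, 9.30 and 9.85 in Tpm, against 7.30, 4.54 and 4.67 in memory cells, and Cables1, a cyclin-dependent kinase adaptor, measured 9.33, 9.40, 9.41 and 9.23 in Tpm, against 6.91, 4.28 and 4.36 in memory cells. Memory 3 again lay between memory 5 and 9 on one side and Tpm on the other for all 3. Without memory 3 the differences were 5.96, 5.23 and 5.12, and on memory 9 alone 6.44, 5.37 and 5.30. Hivep3, a zinc-finger factor, was higher by 4.56 ± 0.61, but a further probe gave 0.28. Cldn10 (4.27), a tight-junction protein, and Serpinh1 (3.98, with 0.53 on a further probe), a collagen chaperone, were also outside the lists. Igfbp7 (4.07), a secreted protein of vessels, completed the largest differences with Actn1, Lag3, Cxcl9, Angpt2 and Ubd, all members of lists above. Igfbp7 and Angpt2 are among the higher endothelial markers. Among genes above background on no memory array, Lpl, a lipoprotein lipase, was at least 5.23-fold higher (6.70, 7.38, 10.36 and 6.43 in Tpm), with Tpm 14 far above the others and a difference of 2.46 without it against 3.36 with it. Gucy1a1 was at least 5.01-fold higher, Hmgn3 at least 4.95-fold, Renbp at least 4.75-fold, Masp1 at least 3.94-fold and Ch25h, cholesterol 25-hydroxylase, at least 3.74-fold.

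On the lower side Aqp9, a channel for water and glycerol, measured 4.21, 4.51, 4.27 and 4.22 in Tpm, against 9.59, 9.90 and 10.00 in memory cells, at least 32.9-fold lower (adjusted p = 1.75e-12). Sytl2, which docks secretory granules, measured 5.41, 5.89, 5.71 and 5.83 in Tpm, against 10.06, 10.45 and 10.84 in memory cells (-4.74 ± 0.31, adjusted p = 8.18e-09). Rap1gap2, above background on 1 of 4 Tpm arrays, differed by -4.57 ± 0.21, Phf11a by -3.93 ± 0.31 and Dtx1, a ubiquitin ligase of the Notch pathway, by -3.89 ± 0.35. All 5 genes were above background on all 3 memory arrays and kept their calls without memory 3, without memory 5 and on memory 9 alone. The genes above background on all memory arrays and on no naive or Teff array numbered 11, and all 11 were called lower in Tpm. Levels in Tpm took no part in this choice, but it favours genes that are high in memory cells. No Tpm array read 9 of them, while Ccl9 was above background on 4 Tpm arrays and Gzmk on 2.

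Some calls were present with all arrays and absent on memory 9 alone. The largest higher differences lost on memory 9 alone were Gpnmb (6.77, 7.48, 11.60 and 6.86 in Tpm, against 4.51, 4.25 and 5.00 in memory cells), Slamf6, Clec7a and Mmp12; Gpnmb, Clec7a and Mmp12 are macrophage genes and were highest on Tpm 14. Without Tpm 14 the differences were 2.42 for Gpnmb, 1.06 for Clec7a and 1.24 for Mmp12, against 3.59, 2.19 and 2.16 with it, and a further probe of Gpnmb gave -0.31. The largest lower differences lost were Zmiz1 (-2.69, and -1.82 on memory 9 alone), Fcmr (-2.49 and -1.67, above background on 2 of 4 Tpm arrays), Crybg1 (-2.37 and -2.23) and Ifit3. With 1 memory array the spread is estimated from the other groups, and the standard error of a gene can change either way. A lost call alone therefore does not show a smaller difference.

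**Figure D5:**
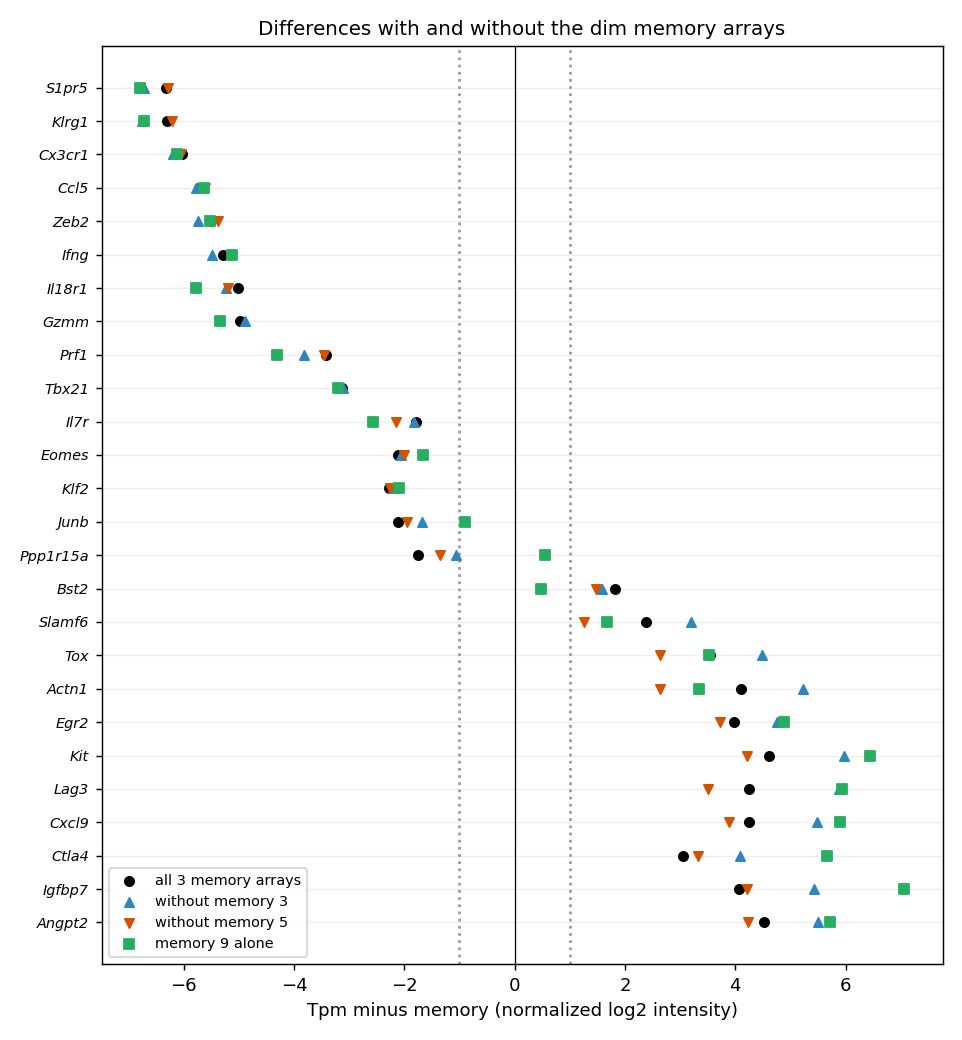
Difference between Tpm and memory cells (normalized log2 intensity) of 26 genes with all 3 memory arrays (black circles), without memory 3 (blue), without memory 5 (orange) and on memory 9 alone (green squares), with dotted lines at 2-fold. Between all arrays and memory 9 alone, Ccl5 (-5.73 and -5.63) and Tox (3.54 and 3.53) barely move, Kit (4.60 and 6.44) grows, and Actn1 (4.11 and 3.34), Junb (-2.10 and -0.89) and Ppp1r15a (-1.75 and 0.55) shrink or turn; over all called genes the median is 1.46 and 1.49 for the higher and -1.47 and -1.58 for the lower genes.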

How the data were processed

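The authors deposited 1 table of non-normalized probe intensity for 17 Illumina mouse arrays, 1 per sample, in linear units, per the file headers (scanner and software: not given in the sources used here). A deposited table of processed intensity held quantile-normalized linear values, found from the values (each column has a median of 97.8 and a Spearman correlation of 1 with its array), and served as an alternative.

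Background of each array was taken as the mode of its signals, with the root mean square distance of signals below the mode as SD. Signals were corrected with normexp, an offset of 16 was added, and they were quantile normalized and log2 transformed. Above background meant a signal past 2.33 SD over the mode (one-sided p of 0.01), and the 19992 of 45281 probes that passed this on at least 3 arrays were kept. Of all probes 34885 had 1 gene symbol in the platform annotation, 18 several and 10378 none. The brightest kept probe stood for a gene, giving 10613 genes. limma 3.58.1 in R 4.3.3 was fitted over all 17 arrays with 1 coefficient per group, the 5 naive and 5 Teff arrays sharing in the estimate of the spread, and adjusted p-values were Benjamini-Hochberg over all genes. Tables and figures used Python 3.11.15, pandas 2.3.3, SciPy 1.17.1 and matplotlib 3.10.9. The fit was tested on simulated data with independent noise of the same spread per gene on all 17 arrays. Dim arrays and a wider spread in memory cells were not simulated, so that test does not cover them. The number of arrays limits the precision.

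Genes named are the 12 largest called differences in each direction that both groups read and that kept their sign without the dim arrays, the 6 largest bounds in each direction, up to 4 and 2 called members of each list, up to 4 members of each marker list read on all Tpm arrays and on none or all of the memory arrays, up to 4 genes in each direction that lost the call or sign on memory 9 alone, and a list of T-cell genes. Igtp, Ddx58, Eif2s3y, Xist, Lyz2 and genes named without a value of their own stand outside that rule and were chosen after their values were seen. Members and lists were chosen with earlier results of these data known. Alternatives changed background correction, scaling, offset, filter, probe summary, arrays in the fit, array weights and single arrays.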

Additional observations from a re-analysis of the deposited data

Results flagged for a closer look

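In 13 of the 159 genes examined, 1 of the 4 Tpm arrays lay far from the other 3; chance alone flags about 1 gene in 20. Tpm 14 was that array for 11 of the 13. It was the highest Tpm array for Lyz1 (13.27), Gpnmb (11.6), H2-Eb1 (10.5), Fcer1g (9.867), Ccl9 (9.526) and Cd83 (7.143). It was also the highest for the spindle gene Nusap1 (10.79), for Egr2 (9.481) and for Rap1gap2 (5.341), and the lowest for Dcn (7.507) and Klrb1c (4.828). Tpm 15 was the highest Tpm array for Itga1 (4.976) and the lowest for S100a4 (4.408), both near background. Without Tpm 14 the difference of Gpnmb was 2.42 and that of Nusap1 was 2.71. The cause was not tested.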

How the results depend on the processing

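The main setting called 954 genes higher and 520 lower. Without background correction the counts were 336 and 285, with each array scaled to its median 4492 and 56, with the authors' processed values 379 and 301, and with arrays scaled to the genes above background on all arrays, an alternative chosen after seeing the data, 308 and 3803. Genes higher numbered 500 under cyclic loess (420 lower), 539 with an offset of 50, 550 with only the Tpm and memory arrays fitted and 265 among the 5465 genes above background on memory 5, where fewer genes were tested. Leaving out 1 array at a time gave 824 to 1208 higher and 489 to 658 lower. The share of calls that were higher was 64.7%, against 54.1% without background correction, 98.8% with median scaling, 54.3% under cyclic loess, 34.6% among genes read on memory 5 and 7.49% on the scale of genes above background on all arrays. With median scaling the sign turned for Bcl2 (0.60), Cd2 (0.11), Cd3e (1.75), Cd44 (0.53), Cd79b (1.32), Gbp7 (0.038), H2-K1 (0.53), H2-T23 (0.53), Il7r (0.16), Nt5e (0.79), Rgs1 (0.69) and Rpa2 (0.36). On the scale of genes above background on all arrays it turned for Atf5 (-0.10), Gins1 (-0.11) and Pdcd1 (-1.59), and on memory 9 alone for Ppp1r15a (0.55). The cause was not tested. Of 72 counts of list members, 69 moved by more than 1.5 times under at least 1 of 19 alternatives. No paired analysis was possible because the groups share no replicate numbers. Slide as a block was not run, since the headers used here give no slide. Signal over background limits memory 5 most.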
